A study of Homo sapiens with 4 samples.

Results

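The 10 genes described here encode the cytoplasmic actins ACTB and ACTG1, the actin-binding proteins CFL1 (cofilin) and PFN1 (profilin), the intermediate filament protein VIM (vimentin), the alpha-tubulins TUBA1A, TUBA1B and TUBA1C, and the beta-tubulins TUBB and TUBB4B. They were taken by symbol, and all 10 were found among the 44715 genes listed for each library. The question was how ACTB mRNA, the reference of the set, compared with its paralog ACTG1 and with the tubulin mRNAs when RNA was recovered with an antibody against PHGDH or with a control IgG antibody. PHGDH is the enzyme of the first step of serine synthesis, and the study asked whether it associates with RNA.

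RNA immunoprecipitation was carried out under native conditions from lysates of HEK293T, a transformed line of human embryonic kidney origin that makes the SV40 large T antigen. Every library came from this line, and the antibody was the only labelled difference. There were 2 libraries with anti-PHGDH (PHGDH pulldowns) and 2 with IgG (control pulldowns), which the study describes as biological replicates, and paired values below are always in the order of replicates 1 and 2. No library of input RNA was analysed here, so a value gives a transcript's share of the recovered RNA and not its recovery from the cell. Values are CPM, the reads of a gene scaled to a common library total, and are not divided by transcript length, so levels are compared between libraries and not between genes.

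Actin monomers assemble into filaments that give the cell its shape and drive its movement, and alpha- and beta-tubulin dimers assemble into microtubules. Cofilin severs and disassembles actin filaments, and profilin delivers actin monomers to growing filaments. Tubulin mRNAs are autoregulated: when free tubulin dimers are in excess, TTC5 recognises the first residues of nascent tubulin on the ribosome and the mRNA being translated is degraded. Actin mRNAs are controlled largely at transcription, through serum response factor and its actin-sensing coactivators.

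The libraries differed in depth and in the genes they held. They contained between 1216477 and 3875746 reads assigned to genes. IgG replicate 1 was the deepest library but listed only 4148 genes above 0, against 14518 to 16767 in the other libraries, and 61.9% of the genes tested were at 0 in it. Mitochondrially encoded genes took 28.8% of the reads of anti-PHGDH replicate 1 and 3.37% to 8.69% in the others. NEFM, a neurofilament gene that HEK293 cells are known to express, was at 75.5 to 351 CPM, and LIN28B was at 23.8 to 32.9 CPM in 3 libraries and at 0 in IgG replicate 1. PAX2 was at no more than 1.90 CPM. PTPRC, HBB and CD3E were at 0 in all 4 libraries, ALB and MYOG were at no more than 0.297 and 0.822 CPM, and COL1A1 reached 12.3 CPM. The mRNA of the antibody's target, PHGDH, was at 6550.2 and 1531 CPM in the PHGDH pulldowns, against 0 and 461 CPM in the control pulldowns. Many of the values that rest on IgG replicate 1, though not all, are given below with and without it. The part that its missing genes played in the results was not tested.

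ACTB varied least over the libraries. ACTB (chromosome 7, 5527148 to 5530601, GRCh38) was at 1589 and 1596 CPM in the PHGDH pulldowns, against 1190.0 and 1575 CPM in the control pulldowns. Both anti-PHGDH values lay above both IgG values, but the margin over IgG replicate 2 was 1.01-fold. The mean was 1593 ± 5.31 CPM in PHGDH pulldowns and 1382 ± 272 CPM in control pulldowns (SD, n = 2 each). These values rest on 5348, 1942, 4612 and 2487 reads. The highest library was 1.34 times the lowest, the narrowest range among the 10 genes.

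ACTG1, which encodes a protein nearly identical to ACTB, did not share that steadiness. ACTG1 (chromosome 17, 81509971 to 81512799) was at 1577 and 2173 CPM in the PHGDH pulldowns, against 37.7 and 2732 CPM in the control pulldowns. The IgG libraries were the lowest and the highest of the 4, so the groups overlapped. The IgG values differed 72.5-fold (95% interval 61.5 to 86.1, counting error only), where those of ACTB differed 1.32-fold (1.26 to 1.39). On log2(CPM + 1) the absolute difference between the IgG libraries was 6.14 for ACTG1 and 0.404 for ACTB. Its median over all genes tested was 3.48, against 0.622 between the anti-PHGDH libraries. The ACTG1 mean was 1875 ± 421 CPM in PHGDH pulldowns and 1385 ± 1905 CPM in control pulldowns (SD, n = 2 each). With anti-PHGDH the ACTG1 to ACTB ratio of CPM was 0.992 and 1.36. In the IgG libraries that ratio was 0.0317 and 1.74. A ratio of both genes inside a library does not depend on how the library is scaled.

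**Figure D1:**
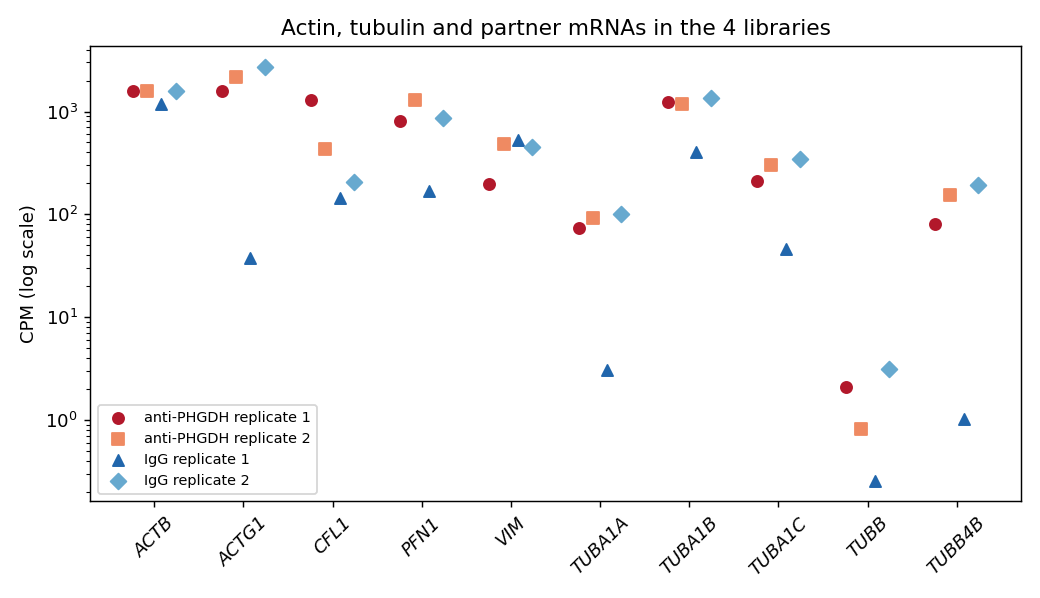
CPM of the 10 cytoskeleton genes on a log axis, with 1 point per library (anti-PHGDH red and orange, IgG dark and light blue). ACTB sits between 1190.0 and 1596 CPM in all 4 libraries, ACTG1 is at 37.7 CPM in IgG replicate 1, and TUBB lies at or under 3.17 CPM in every library.

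CFL1 stood higher with anti-PHGDH than with IgG in every pair of libraries. CFL1 (chromosome 11, 65854673 to 65858180) was at 1301 and 433 CPM in the PHGDH pulldowns, against 143 and 207 CPM in the control pulldowns. The groups did not overlap, and the lower anti-PHGDH value was 2.09 times the higher IgG value (95% interval 1.82 to 2.41, counting error only). The anti-PHGDH replicates themselves differed 3.00-fold, more than the 1.44-fold between the IgG replicates. The mean was 867 ± 613 CPM in PHGDH pulldowns and 175 ± 44.96 CPM in control pulldowns (SD, n = 2 each).

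PFN1 was less regular. PFN1 (chromosome 17, 4945652 to 4948530) was at 815 and 1279.9 CPM in the PHGDH pulldowns, against 169 and 864 CPM in the control pulldowns. Anti-PHGDH replicate 1 was below IgG replicate 2, so the groups overlapped. Within replicate number 2, PFN1 was 1.48 times as high in the PHGDH as in the control pulldown (1.38 to 1.59). The ratio of CFL1 to PFN1 ran from 0.240 in IgG replicate 2 to 1.60 in anti-PHGDH replicate 1, so these actin partners did not follow each other across the libraries.

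Among the 9 genes with enough reads to test, VIM was the 1 whose lowest value came from a PHGDH pulldown. VIM (chromosome 10, 17228241 to 17237593) was at 199 and 482 CPM in the PHGDH pulldowns, against 530.0 and 456 CPM in the control pulldowns. Anti-PHGDH replicate 1 was low, and the other 3 libraries lay within 456 to 530.0 CPM. The mean was 341 ± 200 CPM in PHGDH pulldowns and 493 ± 51.9 CPM in control pulldowns (SD, n = 2 each).

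The alpha-tubulin genes TUBA1B, TUBA1A and TUBA1C lie close together on chromosome 12, between 49127782 and 49274600. TUBA1B was at 1224 and 1174 CPM in the PHGDH pulldowns, against 399.7 and 1356 CPM in the control pulldowns. TUBA1C was at 210.3 and 303 CPM in the PHGDH pulldowns, against 45.9 and 344 CPM in the control pulldowns. TUBA1A was at 73.4 and 92.1 CPM in the PHGDH pulldowns, against 3.10 and 101 CPM in the control pulldowns. All 3 genes were lowest in IgG replicate 1 and highest in IgG replicate 2, with both anti-PHGDH values between. In the other 3 libraries the TUBA1B to TUBA1A ratio lay between 12.8 and 16.7. In IgG replicate 1 that ratio was 129, on 12 TUBA1A reads. The TUBA1B to TUBA1C ratio was 5.82 and 3.87 in the PHGDH pulldowns, against 8.70 and 3.94 in the control pulldowns, so it was also highest in IgG replicate 1 but by a smaller margin.

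TUBB4B, a beta-tubulin on chromosome 9 (137241287 to 137243707), followed the same order. It was at 80.5 and 154 CPM in the PHGDH pulldowns, against 1.03 and 194 CPM in the control pulldowns. The value in IgG replicate 1 rests on 4 reads, and the IgG values differed 188-fold (95% interval 72.6 to 693, counting error only). On log2(CPM + 1) they differed by 6.58, where the median absolute difference over all genes tested was 3.48.

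TUBB had almost no reads. It was at 2.08 and 0.822 CPM in the PHGDH pulldowns, against 0.258 and 3.17 CPM in the control pulldowns, which are 7, 1, 1 and 5 reads, and it did not reach the 5 CPM in 2 libraries needed to be tested. TUBB lies on chromosome 6 (30720352 to 30725422), in the major histocompatibility region, and its neighbours had the same lack of reads. Of the 20 coding genes nearest to it, 10 on each side, 17 were at 0 in all 4 libraries and the highest value was 2.47 CPM. The run of consecutive coding genes with no library at 5 CPM, TUBB included, was 63 genes long, from GPX6 to PSORS1C2, and TUBB held its highest value. Only 1 other run in the tables was as long, with 64 genes on chromosome 11, while 51.7% of the 19208 coding genes with a position reached 5 CPM in a library. The run around TUBB takes in olfactory receptor genes, such as OR2W1 and OR2H2, at 0 in every library. It also takes in HLA-E, ABCF1, PPP1R10, DHX16 and MDC1, which are not olfactory receptor genes and were at 0 in every library too. Past its end, after CCHCR1 at up to 6.965 CPM, DDX39B, CSNK2B and VARS1 were at 0 as well. RPS18 reached only 1.27 CPM there, while HLA-C and HLA-B reached 87.1 and 42.4 CPM. Which genes of the run are expressed in this line was not tested. No comparison of TUBB between antibodies is made. How the authors' mapping and counting treated that stretch is not stated in the sources used here, and its part was not tested.

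**Figure D2:**
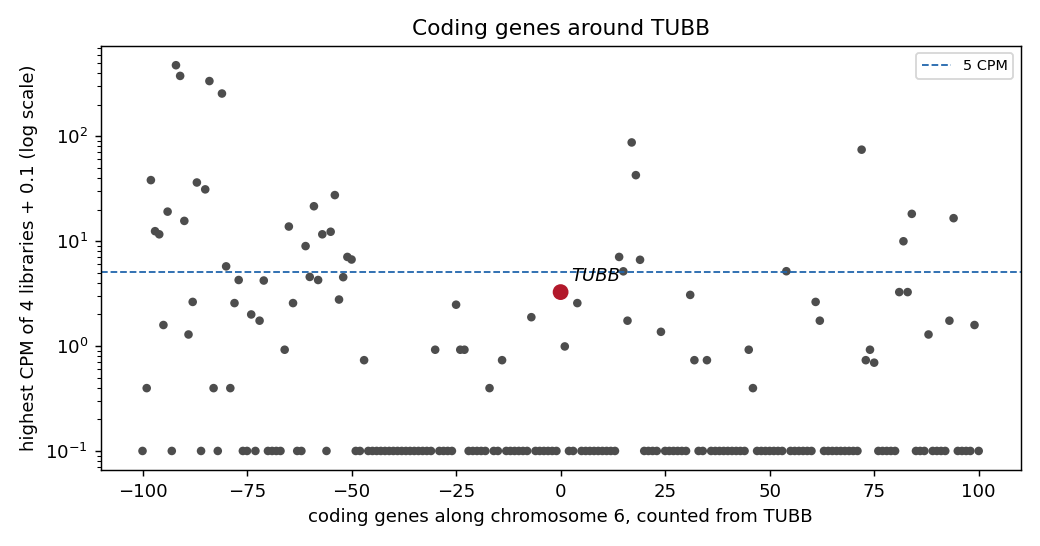
Highest CPM over the 4 libraries, plus 0.1, on a log axis, for coding genes in order along chromosome 6, counted from TUBB (red). Points at the bottom are genes at 0 in every library, and TUBB lies inside a run of 63 genes that stay under 5 CPM (dashed line).

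The antibodies were compared over the whole table with limma on log2(CPM + 1), for the 9524 genes that reached 5 CPM in 2 libraries or more. Of the 10 genes, 9 were tested and 0 passed an adjusted p of 0.05, where 1 gene of the whole table, PHGDH, did (0.0105% of those tested). The call of PHGDH was lost in 9 of 16 alternative fits, where its adjusted p lay between 0.171 (pseudocount of 5) and 1.00. At an unadjusted p under 0.05 there was 1 of the 9, ACTG1, where 2.74% of all genes were higher. edgeR and DESeq2 on the recovered reads called 0 of the 9 at an adjusted or unadjusted p of 0.05. Of all 9524 genes, 21 were higher and 162 lower without adjustment in edgeR, and 89 and 149 in DESeq2. The limma adjusted p of the 9 genes ran from 0.677 to 0.899, with standard errors of 1.14 to 2.06 on the log2 scale. These follow from the spread that the fit gives a gene of that level, and with 2 libraries per antibody an exact permutation test cannot give a two-sided p under 0.333.

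The fold changes have to be read against the table. The 9 genes had a median log2 fold change of 1.42, against 1.92 for the whole table of genes tested. With TMM factors these medians were 1.15 for the 9 genes and 1.77 for all genes, and after quantile normalization they were 0.96 and -0.05. Without IgG replicate 1 they were -0.30 and 0.14, so the sign of the 9 genes' median turned. ACTB had a log2 fold change of 0.22 (SE 1.14; limma adjusted p = 0.899), which was -1.71 relative to the median of all genes, and its sign turned with TMM factors (-0.05). ACTG1 had 2.51 (SE 1.23; limma adjusted p = 0.677) and TUBB4B 2.497 (SE 2.00; limma adjusted p = 0.677). Without IgG replicate 1 these were -0.56 and -0.79. In the count models ACTG1 and TUBB4B were at 0.27 and 0.10 in edgeR and at 0.52 and 0.33 in DESeq2. They were at 2.26 and 2.61 in edgeR with a block for replicate number. The medians of all genes in these fits were 0.81 in edgeR, 1.08 in DESeq2 and 3.08 in edgeR with the block. CFL1 had 2.12 (SE 1.38; limma adjusted p = 0.677), or 1.85 when IgG replicate 1 was left out. TUBA1A, PFN1, TUBA1C and TUBA1B had 2.02, 1.42, 0.99 and 0.70, which became -0.30, 0.24, -0.45 and -0.18 without IgG replicate 1. VIM had -0.66, or -0.56 without IgG replicate 1 and -0.03 without anti-PHGDH replicate 1. Without IgG replicate 2, 6 of the 9 genes passed the limma threshold (ACTG1, CFL1, PFN1, TUBA1A, TUBA1C and TUBB4B), in a fit where 74.9% of all genes passed as higher and 10.8% as lower.

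Groups without overlap were counted next. Both anti-PHGDH values were above both IgG values for 2 of the 9 genes, ACTB and CFL1, where 38.3% of all genes tested were so, and 0 of 9 were the other way (6.16% of all genes). With TMM factors the counts were 1 higher (CFL1) and 1 lower (VIM), against 31.9% and 9.05% of all genes. After quantile normalization they were 4 higher (ACTB, CFL1, TUBA1B and PFN1) and 0 lower, against 17.1% and 20.6%. CFL1 was also the 1 gene of the 9 at least 2-fold higher in every pair on CPM + 1, a rule that 9.30% of all genes met, and 0 of the 9 were 2-fold lower (0.0840% of all genes). CFL1 did not reach 2-fold in every pair with TMM factors or after quantile normalization, where 7.08% and 3.07% of all genes did. Without IgG replicate 1, ACTG1 and the 4 tubulin mRNAs tested were lower in both anti-PHGDH libraries than in IgG replicate 2, which held for 25.1% of all genes.

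Within replicate number 2, where the libraries listed 14518 and 14794 genes above 0, the 9 genes lay on both sides of 1. The ratio of anti-PHGDH to IgG was 1.01 for ACTB (95% interval 0.955 to 1.08, counting error only) and 1.06 for VIM (0.945 to 1.18). ACTG1 was at 0.795 (0.757 to 0.835), TUBB4B at 0.793 (0.658 to 0.955) and TUBA1B at 0.866 (0.809 to 0.926). TUBA1C at 0.881 (0.770 to 1.01) and TUBA1A at 0.909 (0.707 to 1.16) had intervals that held 1. In all, 5 of the 9 genes were lower with anti-PHGDH in that pair, among them all 4 tubulins tested, where 36.9% of all genes were lower. CFL1 at 2.09 was higher than 88.7% of the genes tested on log2(CPM + 1), and 14.5% of all genes were at least 2-fold higher in that pair. With 1 library on each side, these intervals compare the libraries and not the antibodies.

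Within replicate number 1 the same ratios were far wider. ACTB was at 1.34 (95% interval 1.28 to 1.39, counting error only), TUBA1B at 3.06 (2.89 to 3.25) and TUBA1C at 4.58 (3.88 to 5.43). ACTG1 was at 41.9 (35.5 to 49.7), TUBA1A at 23.7 (13.3 to 46.5) and TUBB4B at 78.0 (30.1 to 288). VIM was at 0.376 (0.344 to 0.411). So ACTG1 and the 4 tubulins tested were above 1 in this pair and below 1 in the other, and CFL1, PFN1 and ACTB were above 1 in both.

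**Figure D3:**
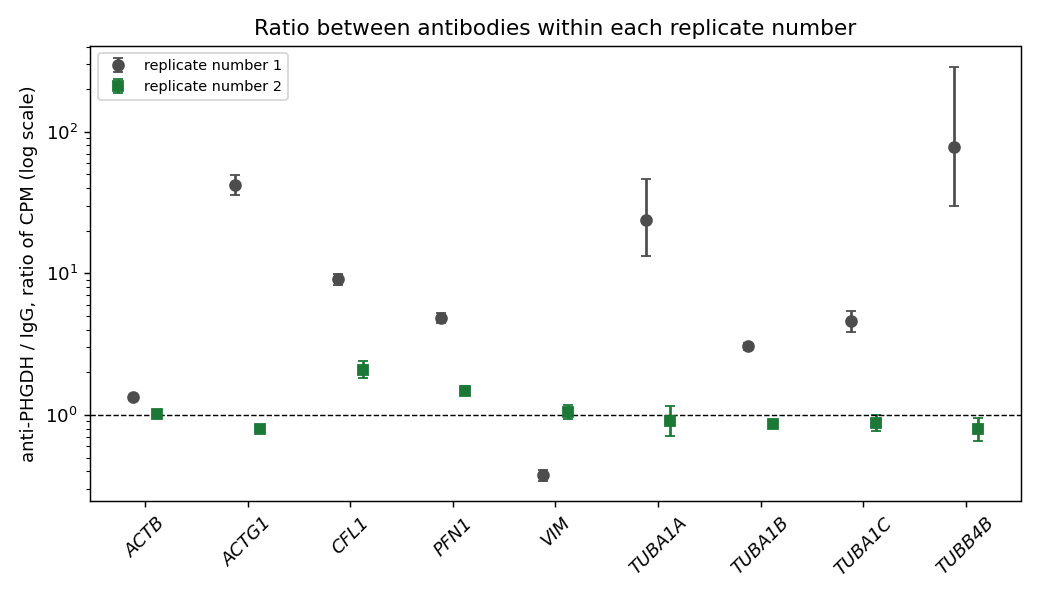
Ratio of anti-PHGDH CPM to IgG CPM on a log axis for the 9 genes tested, within replicate number 1 (grey circles) and 2 (green squares). Bars are 95% intervals that cover counting error only, and the dashed line marks a ratio of 1. CFL1 is at 9.07 and 2.09, while ACTG1 is at 41.9 and 0.795.

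ACTB was then taken as the reference inside each library, which removes the scaling and keeps the order of the genes within a pair by construction. Relative to ACTB, CFL1 was 6.79 times as high in the PHGDH as in the control pulldown within replicate number 1 (95% interval 6.17 to 7.48, counting error only) and 2.06 times within number 2 (1.78 to 2.40). PFN1 was 3.62 times (3.29 to 3.97) and 1.46 times (1.33 to 1.60) as high. These were the 2 of the 8 other genes tested that stood above ACTB in both pairs. ACTG1 relative to ACTB was 31.3 times as high within number 1 and 0.784 times within number 2 (0.727 to 0.847). TUBA1B was 2.29 and 0.854 times as high, and TUBB4B was 58.4 and 0.783 times. With the libraries scaled to equal ACTB, the limma log2 fold change was 1.90 for CFL1, 2.30 for ACTG1 and 0.48 for TUBA1B, with adjusted p of 0.676, 0.676 and 0.778.

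Reads could also have been shared with near-identical copies, since the treatment of reads that match several places is not stated in the sources used here. If such reads were dropped, they would be missing from a gene and its copies alike. The sums below therefore do not bound how many reads were shared. Pseudogenes and copies of ACTB, 24 listed by symbol with the POTE genes among them, summed to at most 0.281% of the ACTB value in any library and were led by ACTBP7, at up to 1.90 CPM. Those of ACTG1 summed to at most 0.886% and were led by ACTG1P20, at 8.32 CPM in anti-PHGDH replicate 1. Those of PFN1 summed to at most 1.32%, led by PFN1P6. Those of CFL1 had reads in 1 gene, CFL1P5 (0.594 CPM in anti-PHGDH replicate 1). For TUBA1B the symbols searched took in TUBA3 genes. Only 1 had reads, TUBA3FP (0.633 CPM in IgG replicate 2), which is named for TUBA3 and not for TUBA1B. Those of TUBB summed to more than TUBB in 3 libraries, with TUBBP5 at 5.64 and 6.58 CPM in the PHGDH pulldowns, against 0 and 8.23 CPM in the control pulldowns. The division of reads among the tubulin paralogs is uncertain for the same reason. Use of strand is not stated either, so reads of VIM and of its antisense gene cannot be told apart.

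The wider cytoskeleton was represented by 75 further genes in 14 roles, of which 64 were tested. Of these, 0 passed an adjusted p of 0.05 in limma, where 0.0105% of all genes did. Unadjusted limma p values under 0.05 were found for 1 higher and 0 lower genes, against 2.74% of all genes higher and 0 lower. edgeR and DESeq2 also called 0 at an adjusted p of 0.05. Without adjustment, 0 were higher and 2 lower in edgeR, where 21 and 162 of all 9524 genes were. DESeq2 without adjustment had 1 of each, against 89 higher and 149 lower of all 9524 genes. The median log2 fold change of the 64 was 1.498, against 1.92 over all genes. It was -0.13 without IgG replicate 1 (0.14 over all genes), -0.17 after quantile normalization (-0.05) and 0.20 in edgeR (0.81). Without IgG replicate 2, 50 of the 64 passed the limma threshold, where 74.9% of all genes passed as higher and 10.8% as lower. Both anti-PHGDH values were above both IgG values for 15 of the 64 and below for 6, where 38.3% and 6.16% of all genes were so. After quantile normalization the counts were 11 and 15, against 17.1% and 20.6% of all genes. In IgG replicate 1, 26 of the 64 were at 0, where 61.9% of all genes were. Within replicate number 2, 34 were higher and 30 lower with anti-PHGDH, against 63.1% and 36.9% of all genes.

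Among actin genes, the muscle-type actins were near 0, with ACTA1 at 0.594 CPM in anti-PHGDH replicate 1 and at 0 elsewhere, and 0 of the 4 were tested. TMSB10, a thymosin that holds actin monomers, was at 584 and 2608 CPM in the PHGDH pulldowns, against 458 and 2842 CPM in the control pulldowns. Both libraries numbered 1 were low and both numbered 2 high. The Arp2/3 complex, which starts branched actin filaments, was represented by 8 genes. Of these, 7 were higher with anti-PHGDH within replicate number 2, where 63.1% of all genes were. ARPC2 had the highest mean of the 8. It was at 247 and 289 CPM in the PHGDH pulldowns, against 889 and 265 CPM in the control pulldowns.

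Several actin-binding genes were highest in IgG replicate 1. CAPZA1, a subunit of the protein that caps filament ends, was at 114 and 86.3 CPM in the PHGDH pulldowns, against 1168 and 70.9 CPM in the control pulldowns. In all, 16 of the 64 genes tested were higher in that library than in the other 3, against 16.3% of all genes. MYL6, a light chain of non-muscle myosin, was at 582 and 2115 CPM in the PHGDH pulldowns, against 817 and 3470 CPM in the control pulldowns. TPM3 is a tropomyosin that runs along actin filaments. It was at 391 and 252 CPM in the PHGDH pulldowns, against 7.22 and 199 CPM in the control pulldowns, without overlap. Of the 4 tropomyosins, TPM3 and TPM4 were higher with anti-PHGDH without overlap, and TPM1 and TPM2 were lower without overlap. TPM1 was at 19.9 and 36.2 CPM in the PHGDH pulldowns, against 743 and 47.5 CPM in the control pulldowns. EZR, which links actin to the membrane, was at 61.5 and 86.3 CPM in the PHGDH pulldowns, against 0 and 80.4 CPM in the control pulldowns. SRF, the serum response factor, was at 26.7 and 20.6 CPM in the PHGDH pulldowns, against 0 and 24.7 CPM in the control pulldowns. For both EZR and SRF the low value was the absence of reads in IgG replicate 1. KRT18, a keratin, was at 74.3 and 124 CPM in the PHGDH pulldowns, against 200.2 and 163 CPM in the control pulldowns, lower with anti-PHGDH in every pair.

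On the microtubule side, the 7 other tubulins tested had a median log2 fold change of 1.64, against 1.92 over all genes. Of these 7, 4 were at 0 in IgG replicate 1, against 61.9% of all genes. Within replicate number 2 the median difference of log2(CPM + 1) was 0.136 for the 7, against 0.176 for all genes. TUBG1 is the gamma-tubulin that nucleates microtubules. It was at 149 and 100.3 CPM in the PHGDH pulldowns, against 9.80 and 91.2 CPM in the control pulldowns. TBCB, a tubulin folding cofactor, was at 193 and 302 CPM in the PHGDH pulldowns, against 59.1 and 289 CPM in the control pulldowns. Among the factors of tubulin mRNA decay, CNOT1, the scaffold of the CCR4-NOT deadenylase, was at 56.5 and 25.5 CPM in the PHGDH pulldowns, against 908 and 28.5 CPM in the control pulldowns. CNOT1 was thus high in IgG replicate 1 and low in the other 3 libraries. TTC5 itself, named here for its role and outside the rule for named genes, was at 37.1 and 28.8 CPM in the PHGDH pulldowns, against 0 and 19.0 CPM in the control pulldowns. STMN1, which binds free tubulin dimers, was at 240 and 441 CPM in the PHGDH pulldowns, against 1117 and 597 CPM in the control pulldowns. DYNLL1, a light chain of dynein, was at 235 and 397 CPM in the PHGDH pulldowns, against 1136 and 586 CPM in the control pulldowns. Both STMN1 and DYNLL1 were lower with anti-PHGDH in every pair of libraries.

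MAP4, which binds along microtubules and stabilises them, had the highest ratio of the 64 within replicate number 2, and it was singled out after its values were seen. It was at 1063 and 512 CPM in the PHGDH pulldowns, against 56.0 and 70.9 CPM in the control pulldowns. The IgG values, which rest on 217 and 112 reads, were close to each other, and the groups did not overlap. Within replicate numbers 1 and 2 MAP4 was 19.0 times (95% interval 16.5 to 21.9, counting error only) and 7.22 times (5.90 to 8.91) as high with anti-PHGDH. On log2(CPM + 1) the ratio within number 2 was higher than that of 99.4% of the genes tested. On the log2 scale the fold change was 3.53 (SE 1.49; limma adjusted p = 0.677), with an adjusted p from 0.000428 to 1.00 over all settings. It was 3.36 when IgG replicate 1 was left out (limma adjusted p = 0.0800) and 3.70 when IgG replicate 2 was left out (limma adjusted p = 0.000428), where 74.9% of all genes passed as higher. MAP4 was the 1 gene of the 64 past an unadjusted p of 0.05 in limma, where 2.74% of all genes were past it as higher. MAP4 and MRTFB, a coactivator of serum response factor, were the 2 of the 64 at least 2-fold higher in every pair, where 9.30% of all genes were, and MRTFB was at 0 in IgG replicate 1.

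**Figure D4:**
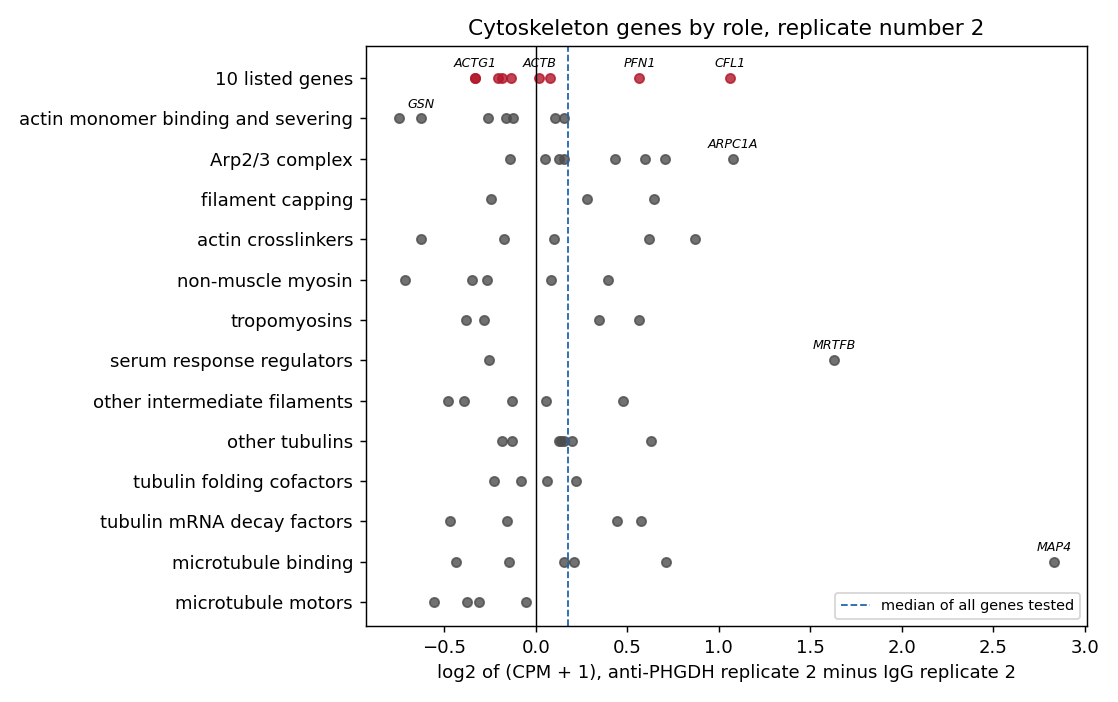
Difference of log2(CPM + 1) between anti-PHGDH replicate 2 and IgG replicate 2 for each cytoskeleton gene tested, by role, with the 9 tested of the 10 listed genes in red. The solid line marks no difference and the dashed line the median of all genes tested (0.18), and MAP4 stands at 2.84 and CFL1 at 1.06.

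The genes whose values were nearest to those of ACTB over the 4 libraries, by root mean square difference of log2(CPM + 1), were PRDX4 (0.21), H3-3B (0.34) and RPL29 (0.36). PRDX4, a peroxiredoxin of the endoplasmic reticulum, was at 1478 and 1389 CPM in the PHGDH pulldowns, against 1469 and 1382 CPM in the control pulldowns. H3-3B, which encodes a replication-independent histone, was at 1891 and 1985 CPM in the PHGDH pulldowns, against 1488 and 2151 CPM in the control pulldowns. RPL29, a protein of the large ribosomal subunit, was at 1852 and 2145 CPM in the PHGDH pulldowns, against 1181 and 2269 CPM in the control pulldowns. This measure compares levels as well as shape over 4 libraries, and the same likeness to TUBB was not read because of its few reads.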

How the data were processed

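The authors deposited 1 table per library with a gene symbol and a CPM value printed to 3 decimals. STAR 2.5.4b, featureCounts and hg38 are named in the submitters' processing notes; annotation, strand, duplicates and multi-mapping reads are not given in the sources used here. Low CPM values were whole multiples of 1 read (0.297 and 0.822 CPM in the PHGDH pulldowns, 0.258 and 0.633 CPM in the control pulldowns), which gave whole reads for 99.98% to 100% of values above 0 per library, within the rounding of the CPM. The 7 exceptions, rounded for the count models, were in no gene described here. A count of 0 allows up to 3 reads, 0.774 to 2.47 CPM. Positions and gene order come from the RefSeq table for GRCh38.p14, which held all 10 genes.

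limma 3.58.1, run in R 4.3.3, gave the main test, with an intensity trend on log2(CPM + 1), two-sided, with no covariates and Benjamini-Hochberg adjustment over all genes tested. The log2(CPM + 1) scale understates the change of low genes. The recovered reads were also tested with edgeR 4.0.16, by quasi-likelihood, which called 0 genes, and with DESeq2 1.42.0. Other alternatives changed the pseudocount, the filter, the scaling, the trend, a replicate block and the libraries used. Intervals are 95% and cover counting error only: exact conditional binomial for a ratio of a gene between libraries, log-normal for ratios relative to ACTB. No molecular identifiers are mentioned, so PCR copies may count separately.

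The genes, the wider list and the tests were chosen with earlier results of these data known. Named were the 10 genes, the 3 genes nearest ACTB, PHGDH, and the leading copy of a gene. Per role of the wider list, the gene with the highest mean CPM and any past the threshold were named. MAP4, MRTFB, TTC5 and the tropomyosins other than TPM3 were named outside this rule. So were genes near TUBB and single genes given as checks of the cell line. P-values measure only the spread between these libraries. In the main limma fit the prior degrees of freedom were infinite. Each gene was thus given the spread of genes of similar level and not its own.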

Additional observations from a re-analysis of the deposited data

How the results depend on the processing

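Over 16 alternative fits, the calls in the higher direction, 1 as reported, came to 11 at a pseudocount of 0.1, 5 without a filter and 4 with the replicate block. At a pseudocount of 5 they stayed at 1, but PHGDH was not the gene called (limma adjusted p = 0.171). They came to 0 without the trend (unadjusted p under 0.05 for 363 higher and 2 lower genes), for edgeR (21 and 162), for DESeq2 (89 and 149) and for edgeR plus the replicate block (10 and 0). Without 1 library, between 0 and 7129 genes were called higher and between 0 and 1032 lower, with 0 to 6 of the 9 cytoskeleton genes tested and 0 to 50 of the 64 wider ones called, the highest of each without IgG replicate 2. The count without overlap in the higher direction, 2, was 1 with TMM factors, 4 after quantile normalization, 1 with libraries scaled to ACTB (where ACTB is equal by construction) and 2 to 8 without 1 library. In the lower direction, 0, it was 1 with TMM factors and 0 to 5 without 1 library. The log2 fold change of ACTB turned to -0.047 with TMM factors, -0.050 in edgeR and -0.047 in edgeR with the block. Without IgG replicate 1, those of ACTG1, TUBA1A, TUBA1B, TUBA1C and TUBB4B turned to -0.56, -0.30, -0.18, -0.45 and -0.79, and without IgG replicate 2 they were highest, at 5.58, 4.34, 1.58, 2.43 and 5.79. ACTB scaled to itself is 0 by construction and was not counted. Of the 159 other values of the 9 genes and MAP4 over the alternatives, these 8 reversed and 144 kept their direction and their side of the threshold. The other 7 passed the threshold, all without IgG replicate 2. CFL1, PFN1, VIM and MAP4 kept their direction in all 16, though PFN1 and VIM came as near 0 as 0.24 (without IgG replicate 1) and -0.030 (without anti-PHGDH replicate 1). The cause of these differences was not tested. Deviations of same-numbered libraries correlated at 0.0058 over genes. With 61.9% of the genes tested at 0 in IgG replicate 1, this value cannot settle whether same-numbered libraries share more than a number. The replicate block called 0 of the 9 genes. Counting precision is poor for TUBB, with 7 reads or fewer in every library, and for TUBB4B and TUBA1A in IgG replicate 1, with 4 and 12 reads in the deepest library.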
